A study of Mus musculus with 10 samples.

Results

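The ADAM genes encode membrane proteins named for a disintegrin and a metalloprotease domain. They were taken as all array transcript clusters (probe groups for 1 transcript unit) annotated with exactly 1 gene symbol, where that symbol starts with Adam and goes straight on to a digit. This rule gave 31 genes on 32 clusters, out of 20174 genes measured, and the brighter cluster stood for Adam15, the only gene with 2. By general knowledge of where they work, 19 were grouped as sperm and testis ADAMs, with Adam7 of the epididymis among them. A further 9 were widely expressed and other ADAMs with a catalytic site, called widely expressed below, and 3 were neural ADAMs without one. RefSeq lists 34 ADAM genes in the mouse, and Adam20, Adam34 and Adam34l had no cluster chosen by the rule, though clusters under older or several symbols exist for them.

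The study followed how cultures of mouse spermatogonial stem cells become established, with 10 Affymetrix Mouse Gene 1.0 ST arrays in 5 groups of 2. The 0 weeks group held testis cells of adult DBA/2 mice, sorted with magnetic beads through an antibody to CD9, a membrane protein that spermatogonial stem cells share with other cells. The 1 week, 2 weeks and 3 weeks groups were the same kind of cells cultured that long in a medium built on Iscove's, to which GDNF (15 ng/ml), FGF2 (10 ng/ml) and fetal bovine serum (1%) were added. The GS cells group held already established DBA/2 germline stem cells, a long-term spermatogonial stem cell culture, grown in the same medium. No genotype, allele or other agent is named, no age beyond adult is given, and the labels name no feeder cells. They do not say whether the 2 arrays of a group came from separate mice or cultures, so p-values measure only how these samples vary, which may be technical variation.

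Signals were linear intensities with medians of 112 to 125.3 per array, lower quartiles of 59.5 to 73.7 and a lowest value of 30.1. No background level comes with them, so a signal below the lower quartile of its array is not shown to lie above background, and a change into or out of that range is a lower bound. Every label calls the cells spermatogonial stem cells. Of 16 markers of undifferentiated spermatogonia, 0 lay below the lower quartile on both arrays of any group. The 0 weeks arrays also carried spermatid markers, with a summed signal of 44058 to 46710 over the 21 measured, against 1428 to 2065 in the 4 later groups. At 0 weeks 0 of the 21 lay below the lower quartile on both arrays, and in the later groups 11 or 12 did. In such mixed RNA, fewer cells of a type and less RNA per cell cannot be told apart.

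In ADAM proteases with a catalytic site, a zinc-dependent domain cuts the outer part of other membrane proteins, a step called ectodomain shedding that releases growth factors, cytokines and receptors. Many ADAM genes of rodents are used almost only by male germ cells: their proteins form complexes in the endoplasmic reticulum of spermatids and reach the sperm surface, where several are needed in the mouse for passage into the oviduct and for binding the egg coat. The array annotation gave the term metalloendopeptidase activity to 24 of the 31 genes. Those were 12 of the 19 sperm and testis genes, all 9 widely expressed genes and all 3 neural genes, although the neural proteins are known to lack protease activity.

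Across the 5 groups, 29 of the 31 genes differed (limma F test over all groups, adjusted p under 0.05), against 74.7% of all genes, and Adam26a (adjusted p = 0.051) and Adam39 (0.38) did not pass. Their largest movements lay in the 1st week. Between 0 weeks and 1 week, 8 ADAM genes were higher and 19 lower, with 4 not passing. Among all genes 30.3% were higher and 27.5% lower. At a change of at least 2-fold the counts were 7 higher and 12 lower, beside 12.5% and 9.85% of all genes. The median log2 change was -0.42 for the ADAM genes and -0.04 for all genes. The direction divided the larger role groups: 0 of the 19 sperm and testis genes rose and 17 fell, while 7 of the 9 widely expressed genes rose and 0 fell. Of the 3 neural genes 1 rose and 2 fell.

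The later steps moved fewer ADAM genes. From 1 week to 2 weeks 2 rose and 9 fell (25.6% and 25.2% of all genes), of which 0 and 5 by at least 2-fold (3.92% and 9.64%). From 2 weeks to 3 weeks 2 rose and 3 fell (7.71% and 16.5%), with 0 and 0 by at least 2-fold (0.0545% and 0.654%). GS cells were higher than the 3 weeks cultures in 9 genes and lower in 9 (29.9% and 17.2%), but by at least 2-fold only in 1, Adam10, against 3.57% higher and 0.972% lower of all genes. Against the 0 weeks cells they were higher in 8 and lower in 18 (30.8% and 20.4%), with 3 higher and 12 lower by at least 2-fold (9.06% and 8.68%). The small counts rested on single arrays. The 2 rises into 2 weeks became 1 without 1 week replicate 1, and 0 without 1 week replicate 2 or any 1 array of 0 or 2 weeks. The 2 rises into 3 weeks became 1 without any 1 array of 0 or 1 weeks and 0 without any 1 of 2 or 3 weeks. The 3 falls into 3 weeks became 1 without either 2 weeks array or 3 weeks replicate 1, and the count of falls for GS cells against 3 weeks went from 9 to 5 without 3 weeks replicate 1 (4 of the 9, and Adam6b added) or without GS cells replicate 2.

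**Figure D1:**
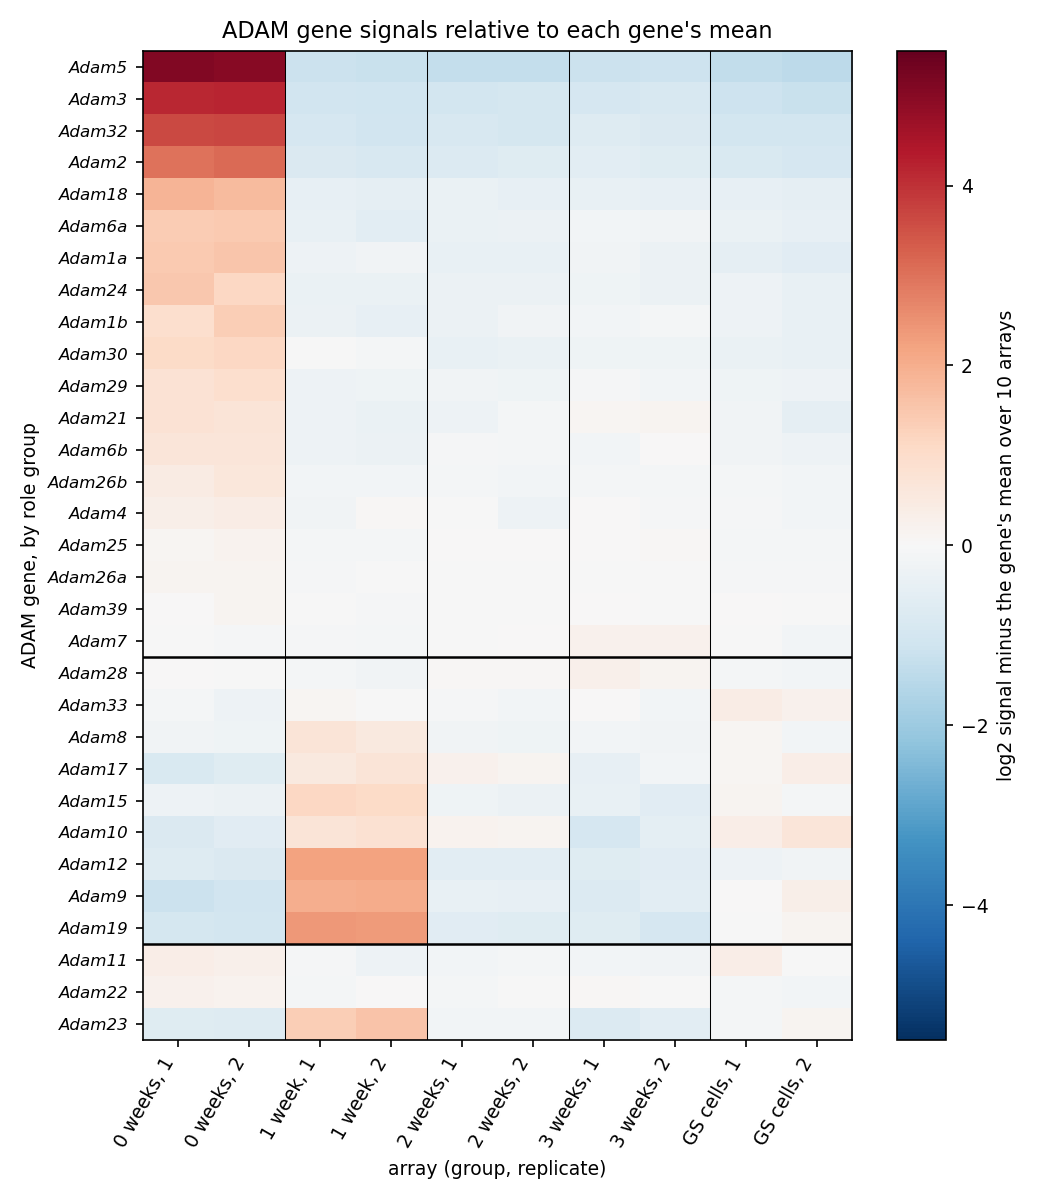
Log2 signal of the 31 ADAM genes (rows, in blocks of sperm and testis, widely expressed and neural genes) on the 10 arrays (columns), relative to each gene's mean over the arrays. The topmost rows are red on both 0 weeks arrays and pale blue on the 8 others; Adam12, Adam9, Adam19 and Adam23 are red on both 1 week arrays.

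The sperm and testis genes gave the largest falls of the 1st week among the ADAM genes. Of those that encode sperm membrane proteins, Adam5 fell at least 76.5-fold, Adam3 at least 38.3-fold, Adam32 at least 25.1-fold and Adam2, the beta subunit of fertilin, at least 15.0-fold. Adam5 had signals of 4434 and 4146 at 0 weeks, 56.7 and 55.5 at 1 week, 52.3 and 52.1 at 2 weeks, 56.8 and 57.9 at 3 weeks, and 51.1 and 47.8 in GS cells. The change at 1 week was -6.26 ± 0.07 (SE, adjusted p = 2.1e-11) on the log2 scale. Adam3 had signals of 2319.9 and 2368 at 0 weeks, 62.4 and 60.1 at 1 week, 65.2 and 66.2 at 2 weeks, 67.7 and 69.6 at 3 weeks, and 58.5 and 55.9 in GS cells. Adam3 encodes cyritestin, without which mouse sperm fail to enter the oviduct, and its change was -5.26 ± 0.06 (SE, adjusted p = 2.2e-11). Adam32 had signals of 1358 and 1374 at 0 weeks, 56.6 and 52.3 at 1 week, 59.1 and 55.9 at 2 weeks, 65.3 and 63.2 at 3 weeks, and 53.5 and 54.3 in GS cells. The Adam32 change was -4.65 ± 0.07 (SE, adjusted p = 2.7e-11). Adam2 had signals of 600.2 and 659 at 0 weeks, 43.5 and 40.6 at 1 week, 44.9 and 47.4 at 2 weeks, 50.8 and 48.2 at 3 weeks, and 42.8 and 39.4 in GS cells. Its change was -3.90 ± 0.08 (SE, adjusted p = 1.3e-10), and for each of these 4 genes both 0 weeks arrays stood far above the 8 others.

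Adam18 encodes another sperm surface protein. Adam18 had signals of 234 and 216 at 0 weeks, 46.9 and 46.6 at 1 week, 49.5 and 47.2 at 2 weeks, 48.4 and 47.8 at 3 weeks, and 46.9 and 45.3 in GS cells. Its change was -2.26 ± 0.07 (SE, adjusted p = 1.3e-09), and the 8 later arrays lay between 45.3 and 49.5. Adam6a and its near copy Adam6b lie next to each other; in the mouse their products are needed for Adam3 protein to reach the sperm surface. Adam6a had signals of 152 and 157 at 0 weeks, 43.2 and 39.5 at 1 week, 45.3 and 46.4 at 2 weeks, 52.9 and 50.4 at 3 weeks, and 45.1 and 43.1 in GS cells. The Adam6a change in the 1st week was -1.90 ± 0.07 (SE, adjusted p = 5.9e-09), and Adam6b went from 72.8 and 73.3 to 37.8 and 36.9, a change of -0.97 ± 0.07 (SE, adjusted p = 1.2e-06). Adam24 encodes testase 1, a sperm protease. Adam24 had signals of 153 and 122 at 0 weeks, 41.9 and 42.5 at 1 week, 43.1 and 43.2 at 2 weeks, 45.8 and 43.4 at 3 weeks, and 45.4 and 41 in GS cells. The Adam24 arrays at 0 weeks differed from each other more than the later ones did, and its change was -1.69 ± 0.10 (SE, adjusted p = 2.6e-07).

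Adam1a and Adam1b encode the alpha subunits that pair with Adam2, the first in spermatids inside the cell and the second on sperm. Adam1a had signals of 324 and 346 at 0 weeks, 99.3 and 105 at 1 week, 90.1 and 90.7 at 2 weeks, 107 and 96.2 at 3 weeks, and 86.9 and 79.1 in GS cells. Adam1b had signals of 132 and 179 at 0 weeks, 55.9 and 51.4 at 1 week, 56.3 and 61.3 at 2 weeks, 63.1 and 64.9 at 3 weeks, and 58.7 and 53.4 in GS cells. The changes in the 1st week were -1.72 ± 0.08 (SE, adjusted p = 3.4e-08) for Adam1a and -1.52 ± 0.13 (SE, adjusted p = 3e-06) for Adam1b. Adam1a was above the lower quartile on every array, whereas Adam1b was below it on all 8 later arrays. Close copies such as Adam6a and Adam6b or Adam26a and Adam26b may bind each other's probes, so the split of signal within a pair is uncertain.

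Adam30, Adam21 and Adam29 are known mainly from testis. Adam30 had signals of 229 and 244 at 0 weeks, 109 and 101 at 1 week, 82.8 and 84.3 at 2 weeks, 92.7 and 92.3 at 3 weeks, and 85.4 and 82.3 in GS cells. Adam21 had signals of 159.6 and 152 at 0 weeks, 76.1 and 72.1 at 1 week, 77 and 85.7 at 2 weeks, 101 and 103 at 3 weeks, and 82 and 65.6 in GS cells. Adam29 had signals of 77.4 and 84.8 at 0 weeks, 37 and 38 at 1 week, 38.9 and 38.3 at 2 weeks, 43.3 and 40.1 at 3 weeks, and 38.2 and 36.7 in GS cells. All 3 fell in the 1st week: Adam30 changed by -1.17 ± 0.07 (SE, adjusted p = 1.9e-07), Adam21 by -1.07 ± 0.10 (SE, adjusted p = 8.6e-06) and Adam29 by -1.11 ± 0.07 (SE, adjusted p = 4e-07). Adam30 also fell from 1 week to 2 weeks (-0.33 ± 0.07 SE, adjusted p = 0.0025), the only sperm and testis gene to do so. Adam26b, Adam4, Adam25 and Adam26a fell too, with log2 changes of -0.69, -0.42, -0.27 and -0.20. The Adam25 and Adam26a falls did not pass under median scaling (-0.16, adjusted p = 0.082 and -0.10, adjusted p = 0.27), and Adam26a also did not pass without either 0 weeks array or without 1 week replicate 1 (adjusted p = 0.052, 0.072 and 0.078). Adam4 did not pass under quantile scaling (-0.25, adjusted p = 0.072). Adam7 (-0.04, adjusted p = 0.64) and Adam39 (-0.13, adjusted p = 0.11) did not pass.

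**Figure D2:**
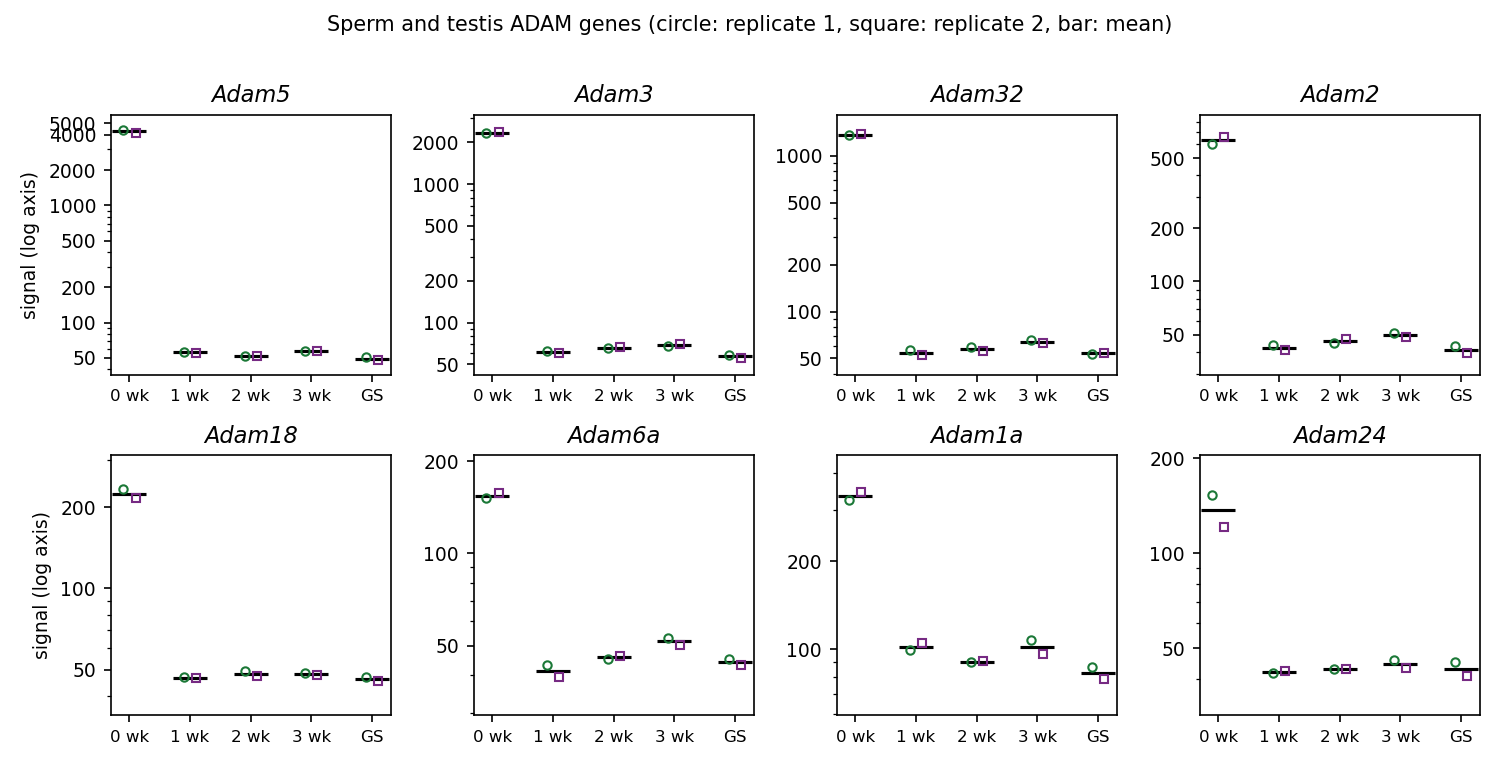
Signal of 8 sperm and testis ADAM genes per array and group; each panel has its own log axis, symbols are single arrays and bars are group means. In every panel both 0 weeks arrays lie above all 8 later arrays.

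How far the sperm and testis genes fell could be read only as a bound for most. Adam18, Adam1b, Adam2, Adam24, Adam29, Adam32, Adam5, Adam6a and Adam6b (9 of 19) were below the lower quartile on all 8 later arrays and above it at 0 weeks, and Adam3 was below it on 6 of the 8. Adam25, Adam26a, Adam26b, Adam39 and Adam7 (5 of 19) were below it on all 10 arrays. Adam1a, Adam21 and Adam30 stayed above it on every array and ended in GS cells at 79.1 to 86.9, 65.6 to 82.0 and 82.3 to 85.4. Beside these falls, all 21 spermatid markers fell in the 1st week with a median log2 change of -3.87, all 14 measured spermatocyte markers fell, and the spermatocyte sum went from 19975 to 20180 down to 1487 to 1488. All 6 measured Leydig cell markers also fell in the 1st week (median -2.34). Of 11 measured Sertoli cell markers 7 fell and 2 rose. The part of the changing cell mix in the ADAM falls was not tested.

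After the 1st week few sperm and testis genes passed from step to step. From 1 week to 2 weeks 1 of the 19 rose and 1 fell (25.6% and 25.2% of all genes), with a median of 0.05, and 17 did not pass. The rise was that of Adam6b (0.21 ± 0.07 SE, adjusted p = 0.036), which did not pass under any of the 3 other scalings or without any single array of 0, 1 or 2 weeks (adjusted p = 0.055 to 0.18). From 2 weeks to 3 weeks 2 rose and 0 fell (7.71% and 16.5% of all genes), and 17 did not pass. Those 2 were Adam21 (0.33 ± 0.10 SE, adjusted p = 0.046) and Adam7 (0.24 ± 0.07 SE, adjusted p = 0.031), the latter known from the epididymis and below the lower quartile on every array. Neither passed under the 3 other scalings or without any single array of 2 weeks or 3 weeks, and Adam21 did not pass without any single array of 0 weeks or 1 week either.

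GS cells were lower than the 3 weeks cultures in 8 of the 19 sperm and testis genes, with 0 higher and a median of -0.18. Of all genes 17.2% were lower and 29.9% higher. The falls ranged from -0.21 for Adam5 to -0.48 for Adam21 on the log2 scale, and the 6 of Adam1a, Adam2, Adam3, Adam32, Adam5 and Adam6a did not pass under quantile scaling, nor did that of Adam7 (-0.14, adjusted p = 0.072). Without 3 weeks replicate 1 Adam1a, Adam2, Adam32, Adam5 and Adam6a did not pass (adjusted p = 0.064 to 0.12), and without GS cells replicate 2 Adam1a, Adam2, Adam5 and Adam6a did not (0.086 to 0.13). Adam5 also did not pass without 3 weeks replicate 2 or either 2 weeks array (0.051 to 0.085). Adam21 (-0.48 ± 0.10 SE, adjusted p = 0.0043) passed in every setting that tested it. Against the 0 weeks cells, the median for GS cells was -1.45, with the largest fall again in Adam5 (-6.44 ± 0.07 SE, adjusted p = 1.6e-11). GS cells were lower in 17 of the 19 genes and higher in 0 (20.4% and 30.8% of all genes). The small fall of Adam26a among them (-0.21 ± 0.06 SE, adjusted p = 0.016) did not pass under median scaling or without either 0 weeks array or GS cells replicate 1 (0.054 to 0.12). In the authors' deposited table, the ratio of the 3 weeks mean to the 0 weeks mean was 0.0134 for Adam5, 0.0293 for Adam3, 0.0470 for Adam32 and 0.0787 for Adam2.

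Among the widely expressed genes, the meltrins peaked at 1 week. Adam9 (meltrin gamma), Adam12 (meltrin alpha) and Adam19 (meltrin beta) rose 8.73-fold, 7.72-fold and 10.4-fold over 0 weeks and came most of the way down by 2 weeks. Adam9 had signals of 286 and 316 at 0 weeks, 2585 and 2669 at 1 week, 489.9 and 478 at 2 weeks, 391 and 434 at 3 weeks, and 665 and 799.7 in GS cells. Its changes were 3.13 ± 0.10 (SE, adjusted p = 1.8e-09) into 1 week and -2.44 ± 0.10 (SE, adjusted p = 3.1e-08) into 2 weeks. Adam12 had signals of 123 and 116 at 0 weeks, 922 and 926 at 1 week, 135 and 135 at 2 weeks, 126 and 130.0 at 3 weeks, and 167 and 177 in GS cells. The Adam12 changes over the same steps were 2.95 ± 0.07 (SE, adjusted p = 2e-10) and -2.78 ± 0.07 (SE, adjusted p = 2.4e-09). Adam19 had signals of 121 and 116 at 0 weeks, 1242 and 1214 at 1 week, 153 and 148 at 2 weeks, 150.3 and 125 at 3 weeks, and 231 and 258 in GS cells. For Adam19 they were 3.38 ± 0.10 (SE, adjusted p = 8.4e-10) and -3.03 ± 0.10 (SE, adjusted p = 7.3e-09), and for all 3 genes both 1 week arrays lay above the 8 others without overlap.

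All 3 meltrins were higher in GS cells than at 3 weeks, by 0.83 ± 0.10 (SE, adjusted p = 0.00012), 0.43 ± 0.07 (SE, adjusted p = 0.00053) and 0.84 ± 0.10 (SE, adjusted p = 8.8e-05) in that order. They were also higher than in the 0 weeks cells, by 1.28 ± 0.10 (SE, adjusted p = 1.9e-06), 0.53 ± 0.07 (SE, adjusted p = 6.5e-05) and 1.05 ± 0.10 (SE, adjusted p = 6.4e-06). From 2 weeks to 3 weeks none of them passed, with changes of -0.23, -0.08 and -0.14.

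Adam10 and Adam17 encode the main sheddases of the cell surface: Adam10 cuts Notch receptors and cadherins, and Adam17 releases tumour necrosis factor and several ligands of the epidermal growth factor receptor. Adam10 had signals of 216 and 244 at 0 weeks, 616 and 676 at 1 week, 424 and 418 at 2 weeks, 195 and 257 at 3 weeks, and 481 and 588 in GS cells. It rose at 1 week by 1.49 ± 0.14 (SE, adjusted p = 5.8e-06), changed by -0.62 ± 0.14 (SE, adjusted p = 0.0039) into 2 weeks and by -0.91 ± 0.14 (SE, adjusted p = 0.0018) into 3 weeks, and was higher in GS cells than at 3 weeks by 1.25 ± 0.14 (SE, adjusted p = 7.3e-05). The 3 weeks arrays overlapped the 0 weeks arrays, and the GS cells arrays stood between 2 weeks and 1 week. These 4 calls, and that of GS cells against 0 weeks (1.21 ± 0.14 SE, adjusted p = 3.4e-05), passed in every setting run.

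Adam17 had signals of 221 and 254 at 0 weeks, 585 and 643 at 1 week, 471 and 442 at 2 weeks, 292 and 355 at 3 weeks, and 425 and 519 in GS cells. The 1st week brought a rise of 1.37 ± 0.13 (SE, adjusted p = 5.2e-06), and GS cells were above 0 weeks by 0.99 ± 0.13 (SE, adjusted p = 7.5e-05). The smaller steps between were -0.43 ± 0.13 (SE, adjusted p = 0.017), -0.50 ± 0.13 (SE, adjusted p = 0.018) and, for GS cells against 3 weeks, 0.55 ± 0.13 (SE, adjusted p = 0.0057). The step into 2 weeks did not pass without 1 week replicate 2 (adjusted p = 0.1), without 2 weeks replicate 2 (0.099) or under quantile scaling (0.098). The step into 3 weeks did not pass without either 2 weeks array (0.12 and 0.069), without 3 weeks replicate 1 (0.13) or under cyclic loess scaling (0.12). GS cells against 3 weeks did not pass without 3 weeks replicate 1 (0.40, adjusted p = 0.051) or under cyclic loess scaling (0.22, adjusted p = 0.14).

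Adam15 encodes metargidin, a protease with an integrin-binding loop. Adam15 had signals of 362 and 350.4 at 0 weeks, 960.0 and 899 at 1 week, 369 and 355 at 2 weeks, 330.0 and 289.6 at 3 weeks, and 485 and 406 in GS cells. Both 1 week arrays stood above the 8 others, with changes of 1.38 ± 0.10 (SE, adjusted p = 7.5e-07) into 1 week and -1.36 ± 0.10 (SE, adjusted p = 1.6e-06) into 2 weeks. Its dimmer cluster gave signals of 126 to 149 at 0 weeks and 162 to 197 at 1 week, and smaller changes of 0.38 ± 0.12 (adjusted p = 0.022) and -0.33 ± 0.12 (adjusted p = 0.051). GS cells were above 3 weeks on the brighter cluster (0.52 ± 0.10 SE, adjusted p = 0.0018) but not under quantile or cyclic loess scaling (adjusted p = 0.098 and 0.22). Against 0 weeks the GS cells value was 0.32 ± 0.10 (SE, adjusted p = 0.02); it turned to -0.14, adjusted p = 0.35 under cyclic loess scaling, and to 0.18, adjusted p = 0.24 under quantile scaling. It did not pass with the average of its clusters (0.24, adjusted p = 0.08), with only the 2 groups fitted (0.051), or without either 0 weeks array or GS cells replicate 1 (adjusted p = 0.061, 0.1 and 0.14).

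Adam8, Adam28 and Adam33 moved less. Adam8, a protease of myeloid cells, went from 97.2 and 92.3 at 0 weeks to 178 and 161 at 1 week and 95.2 and 91.9 at 2 weeks, with changes of 0.83 ± 0.09 (SE, adjusted p = 2.4e-05) and -0.85 ± 0.09 (SE, adjusted p = 3.1e-05). Beside it, 3 of 16 macrophage markers rose and 9 fell in the 1st week, and their summed signal was 2458 to 2580 at 0 weeks and 1928 to 1954 at 1 week. Adam33, known from airway mesenchyme, lay between 135 and 173 on the 8 arrays before GS cells and at 214 and 187 in GS cells. Its change against 3 weeks (0.37 ± 0.10 SE, adjusted p = 0.011) did not pass without 3 weeks replicate 2 or GS cells replicate 1 (0.074 and 0.058), and against 0 weeks it was 0.50 ± 0.10 (SE, adjusted p = 0.0013). Adam28, known from lymphocytes and the epididymis, was below the lower quartile on both arrays of 0 weeks, 1 week and GS cells. It was highest at 3 weeks (79.9 and 73.3) and lower in GS cells (-0.33 ± 0.07 SE, adjusted p = 0.0037, not passing under quantile scaling at adjusted p = 0.062). Its rise at 2 weeks (0.20 ± 0.07 SE, adjusted p = 0.037) did not pass without either 0 weeks array, 1 week replicate 2 or either 2 weeks array (0.053 to 0.2), or under quantile or cyclic loess scaling (0.23 and 0.19).

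**Figure D3:**
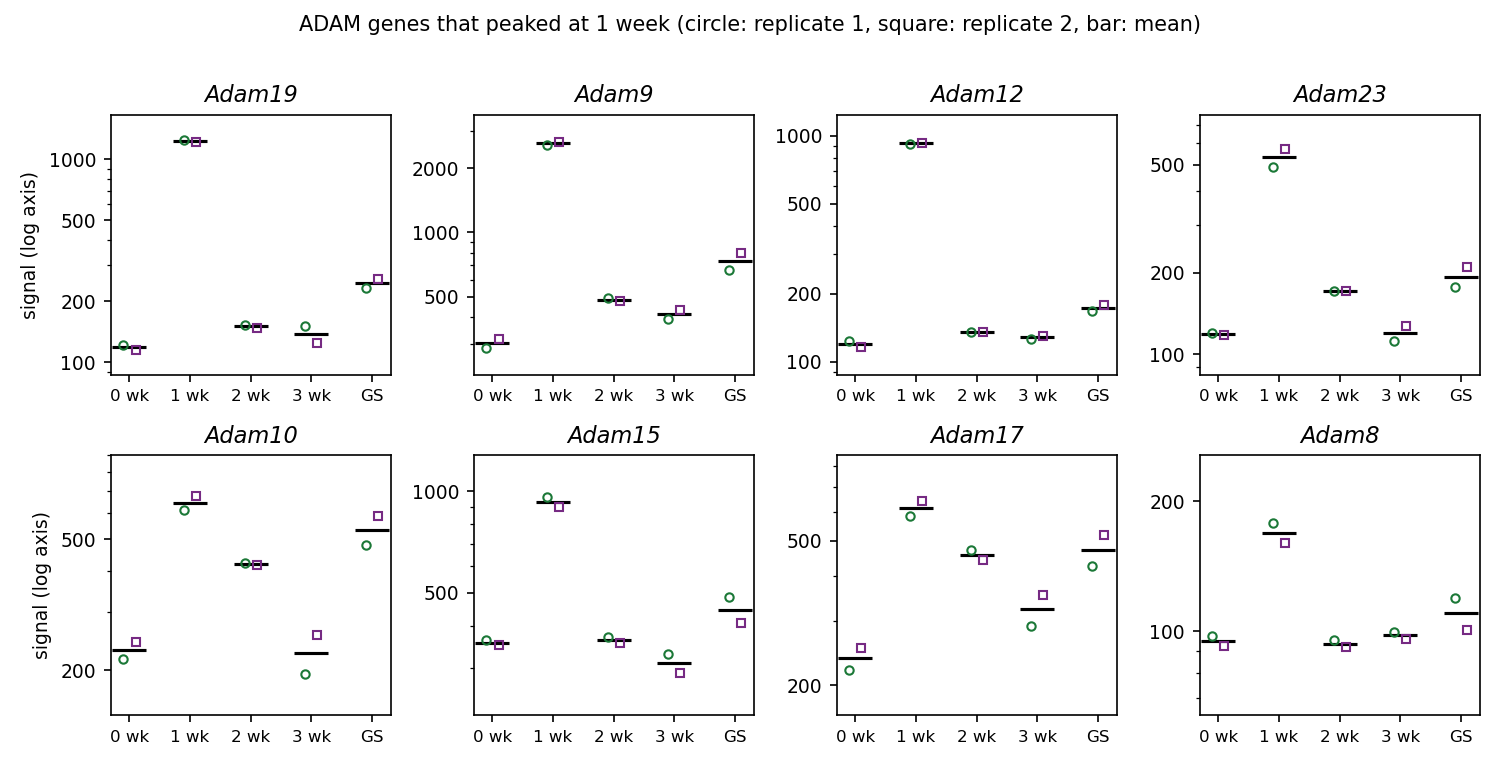
Signal per array and group of the 8 ADAM genes whose mean was highest at 1 week with a passing rise over 0 weeks, 7 widely expressed and Adam23; each panel has its own log axis, symbols are single arrays and bars are group means. Adam19, Adam9, Adam12 and Adam23 come most of the way down by 2 weeks, and Adam15 and Adam8 return close to their 0 weeks means. Adam10, Adam17 and Adam23 step down again into 3 weeks. In every panel the GS cells mean is above the 3 weeks mean, a change that did not pass for Adam8.

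Across the comparisons, the 9 widely expressed genes gave 7 rises and 0 falls in the 1st week (median 1.38), 1 rise and 7 falls from 1 week to 2 weeks (median -0.85), and 0 rises and 2 falls from 2 weeks to 3 weeks (median -0.14). GS cells were higher than 3 weeks in 7 and lower in 1 (median 0.52), and higher than 0 weeks in 7 and lower in 0 (median 0.53). Over all genes the medians of the 5 comparisons lay between -0.04 and 0.06. The shares of all genes that rose and fell were 30.3% and 27.5% into 1 week and 25.6% and 25.2% into 2 weeks. Into 3 weeks they were 7.71% and 16.5%. For GS cells the shares higher and lower were 29.9% and 17.2% against 3 weeks, and 30.8% and 20.4% against 0 weeks. The markers of fibroblasts and mesenchyme moved along: all 22 rose in the 1st week (median 3.10), all 22 fell from 1 week to 2 weeks (median -2.68), 13 fell and 0 rose to 3 weeks, and 21 were higher in GS cells than at 3 weeks (median 1.43). Their summed signal was 9544 to 10689 at 0 weeks, 70653 to 71293 at 1 week, 11600 to 11719 at 2 weeks, 6230 to 7813 at 3 weeks and 23137 to 25397 in GS cells. Peritubular myoid markers summed to 6394 to 7178 at 0 weeks, 8959 to 9415 at 1 week and 1222 to 1260 at 2 weeks. Gene by gene, 1 of these 7 markers rose and 4 fell in the 1st week (median -0.51). Markers of undifferentiated spermatogonia summed to 6341 to 6381 at 0 weeks, 4641 to 4691 at 1 week, the lowest sum, and 14643 to 15010 at 2 weeks. Gene by gene, 6 of these 16 markers rose and 2 fell in the 1st week (median -0.06). The part of these cell types in the 1 week peak of the ADAM genes was not tested.

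Of the 3 neural genes, whose products bind secreted LGI proteins at synapses, Adam23 shared the 1 week peak. Adam23 had signals of 119.6 and 118 at 0 weeks, 492 and 571 at 1 week, 172 and 171 at 2 weeks, 112 and 128 at 3 weeks, and 178 and 209 in GS cells. Its changes were 2.16 ± 0.10 (SE, adjusted p = 3.9e-08) into 1 week, -1.63 ± 0.10 (SE, adjusted p = 6.5e-07) into 2 weeks, -0.52 ± 0.10 (SE, adjusted p = 0.0069) into 3 weeks and 0.69 ± 0.10 (SE, adjusted p = 0.00049) for GS cells against 3 weeks. The step into 3 weeks did not pass without either 2 weeks array or 3 weeks replicate 1 (adjusted p = 0.054, 0.05 and 0.056). Adam11 went from 141 and 133 at 0 weeks to 105 and 88.9 at 1 week (-0.50 ± 0.12 SE, adjusted p = 0.0054), a fall that did not pass without 1 week replicate 2 (-0.38, adjusted p = 0.051). Its GS cells arrays, at 140.1 and 107, differed widely, and the rise over 3 weeks (0.36 ± 0.12 SE, adjusted p = 0.039) was 0.16 (adjusted p = 0.22) without GS cells replicate 1 and did not pass without any single array of 0, 2 or 3 weeks. Adam22 stayed between 57.9 and 75.5; its fall in the 1st week (-0.26 ± 0.07 SE, adjusted p = 0.01) did not pass under the 3 other scalings or without 0 weeks replicate 1 or 1 week replicate 1. GS cells were lower than 0 weeks (-0.33 ± 0.07 SE, adjusted p = 0.0027), which passed in all 19 settings that tested it, and Adam22 was below the lower quartile on 7 of the 8 later arrays.

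The order of genes along the chromosome placed 1 of the meltrins beside the sperm genes with the largest falls. In the RefSeq annotation Adam18, Adam3, Adam5, Adam32 and Adam9 follow each other with 0 protein-coding genes between. The first 4 fell in the 1st week, with log2 changes of -2.26, -5.26, -6.26 and -4.65, while Adam9 rose by 3.13 in the same comparison. From 1 week to 2 weeks Adam9 changed by -2.44 and the 4 others changed by -0.10 to 0.10, none of them passing. Adam1b and Adam1a, and Adam6b and Adam6a, are also direct neighbours, and both members of each pair fell.

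**Figure D4:**
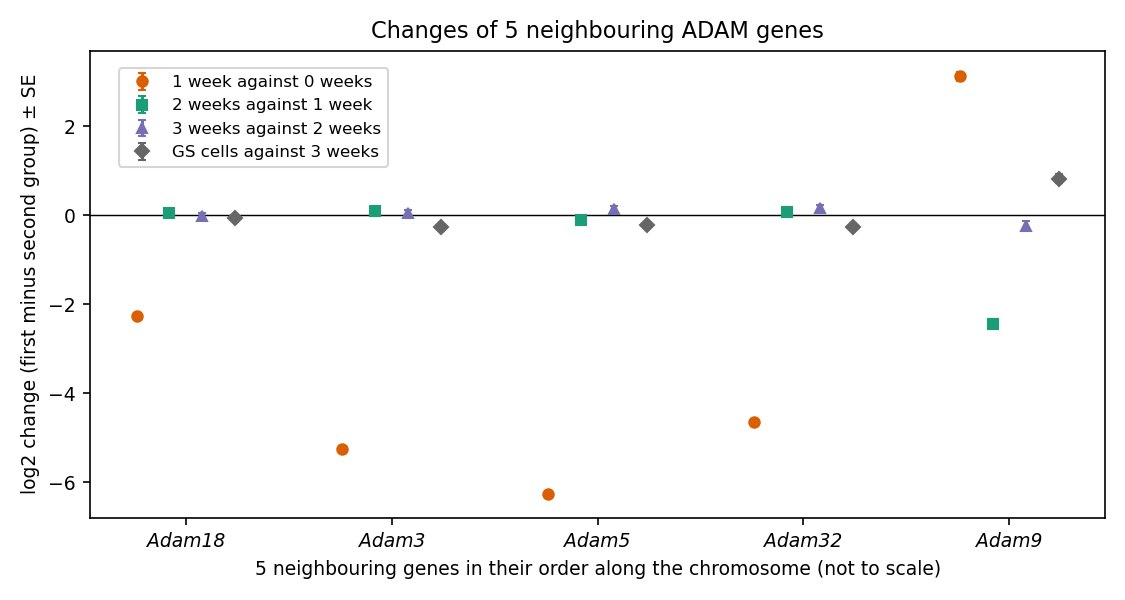
Log2 change ± SE (y axis) of Adam18, Adam3, Adam5, Adam32 and Adam9 in their chromosomal order (x axis, not to scale) for 4 comparisons of successive groups. The orange points, for 1 week against 0 weeks, lie between -2.26 and -6.26 for the first 4 genes and at 3.13 for Adam9.

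Promoters of some genes that fell and some that rose are shown because they differed in base composition. RefSeq promoter windows of the build GRCm38.p6 were matched for 15 of the 31 genes (17 windows, 3 of them for Adam19), and the 250 bases before the annotated start were read from each. The 16 genes without a window included Adam5, Adam3, Adam32, Adam2, Adam18 and Adam24, and the meltrins Adam9 and Adam12. The 6 printed here are chr5:121521696-121521945 on the minus strand for Adam1a, chr12:113543658-113543907 on the plus strand for Adam6a, chr8:55906965-55907214 on the minus strand for Adam29, chr9:70678732-70678981 on the plus strand for Adam10, chr12:21373633-21373882 on the minus strand for Adam17 and chr1:63445641-63445890 on the plus strand for Adam23, each 5′ to 3′ with the dinucleotide CG in capitals.
Adam1a: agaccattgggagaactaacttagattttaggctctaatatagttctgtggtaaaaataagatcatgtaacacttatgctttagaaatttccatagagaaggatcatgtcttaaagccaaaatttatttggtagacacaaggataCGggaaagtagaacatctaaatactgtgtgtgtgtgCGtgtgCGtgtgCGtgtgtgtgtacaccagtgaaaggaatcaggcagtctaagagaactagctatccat
Adam6a: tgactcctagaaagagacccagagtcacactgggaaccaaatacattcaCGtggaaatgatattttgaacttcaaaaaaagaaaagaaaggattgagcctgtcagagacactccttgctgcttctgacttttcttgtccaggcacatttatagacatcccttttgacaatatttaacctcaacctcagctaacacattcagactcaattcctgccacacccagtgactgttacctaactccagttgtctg
Adam29: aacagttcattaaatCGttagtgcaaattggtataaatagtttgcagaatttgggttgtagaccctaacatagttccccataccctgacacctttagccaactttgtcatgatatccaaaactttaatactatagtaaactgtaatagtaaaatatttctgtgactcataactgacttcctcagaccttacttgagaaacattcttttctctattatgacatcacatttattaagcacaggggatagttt
Adam10: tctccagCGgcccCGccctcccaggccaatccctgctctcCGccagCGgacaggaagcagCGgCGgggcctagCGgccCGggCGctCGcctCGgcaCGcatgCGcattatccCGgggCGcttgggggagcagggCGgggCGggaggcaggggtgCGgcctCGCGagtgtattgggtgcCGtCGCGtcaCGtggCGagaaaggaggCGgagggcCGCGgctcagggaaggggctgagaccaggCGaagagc
Adam17: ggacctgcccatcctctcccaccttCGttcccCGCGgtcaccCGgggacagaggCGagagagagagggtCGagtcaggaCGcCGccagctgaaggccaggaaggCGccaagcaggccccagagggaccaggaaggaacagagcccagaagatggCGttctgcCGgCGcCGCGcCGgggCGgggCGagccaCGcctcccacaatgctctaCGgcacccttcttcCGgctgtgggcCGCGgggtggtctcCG
Adam23: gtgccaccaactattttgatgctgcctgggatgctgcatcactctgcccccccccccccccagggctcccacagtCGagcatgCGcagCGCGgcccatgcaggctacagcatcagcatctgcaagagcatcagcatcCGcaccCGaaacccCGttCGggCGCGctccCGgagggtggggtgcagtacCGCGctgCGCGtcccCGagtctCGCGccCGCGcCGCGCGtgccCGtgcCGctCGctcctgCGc
The first 3, from sperm and testis genes that fell, held 4, 1 and 1 CG dinucleotides at a GC content of 38.0%, 41.6% and 33.2%. The other 3, from genes that rose at 1 week, held 29, 23 and 27 at 74.0%, 70.4% and 70.4%. These 6 were picked for their contrast. Among the other genes that rose, Adam19 and Adam8 lay nearer the medians of all promoters. The 3 windows of Adam19 held 4 to 7 at 50% to 60%, and that of Adam8 held 6 at 52.8%. The window of Adam15, which also rose, held 18 at 62.0%. That of Adam22, a neural gene with a small fall in the 1st week, held 17 at 66.8%.

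Over the windows matched, the 8 sperm and testis windows had a median GC content of 38.8% (33.2% to 50%) and a median of 1 CG dinucleotide (0 to 4). They do not cover the 4 genes with the largest falls, and include Adam25 and Adam26b, below the lower quartile on every array. The 7 windows of 5 widely expressed genes had 60% (50% to 74.0%) and 7 (4 to 29), and the 2 neural windows 66.8% and 70.4% with 17 and 27. All 32851 windows of the table had medians of 52.4% and 6. Composition was chosen as a measure after the windows were read and is given without a test. The letters TGACGTCA, the cAMP response element to which the spermatid factor CREM binds, were in 0 of the 17 windows and in 1.55% of all windows, searched on both strands. AACNGTT, the MYB core, was in 1 of 17 (Adam29) and 3.80% of all, and GTTGCC, an RFX motif, in 2 of 17 (Adam26b and a window of Adam19) and 10.4% of all. A match of letters describes the window and says nothing on whether a factor binds.

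**Figure D5:**
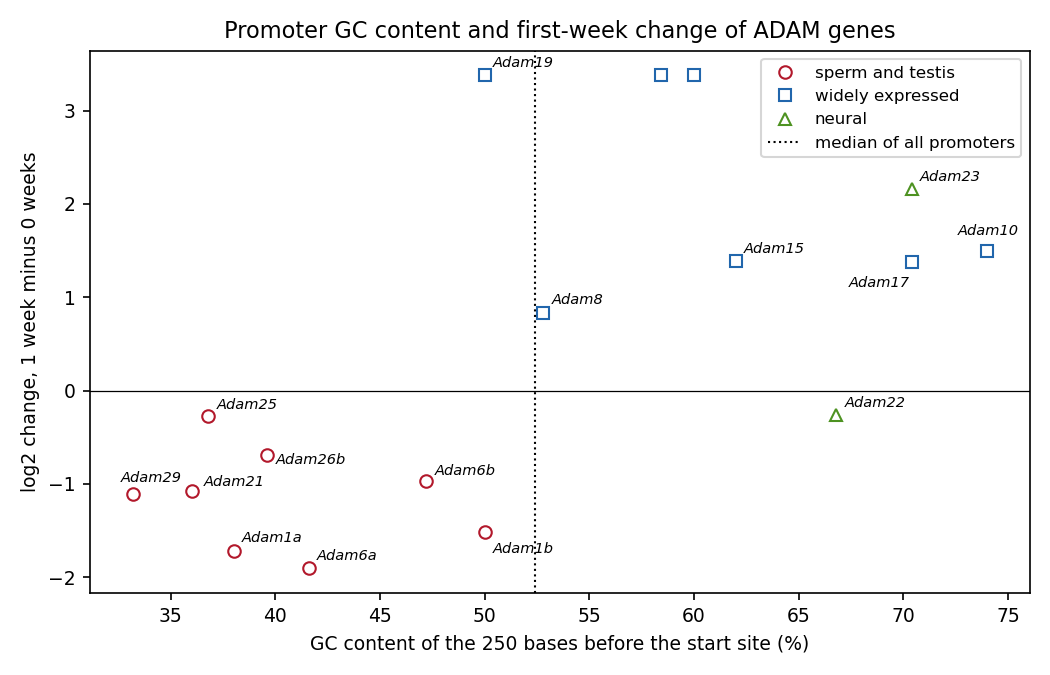
GC content (%) of the 250 bases before the start site (x axis) and log2 change of 1 week against 0 weeks (y axis) for the 17 promoter windows of 15 ADAM genes; Adam19 has 3 windows, drawn as 3 squares at 1 height, and the dotted line is the median of all promoters. The 8 sperm and testis windows lie left of the line and below 0. Both neural windows lie right of it, that of Adam23 above 0 and that of Adam22 below 0.

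A list of maturation partners of sperm ADAM proteins, which also holds the sperm proteins of fertilisation Izumo1, Spaca1, Spam1 and Zp3r, had 15 measured genes. Of these 14 fell in the 1st week and 1 rose, beside 27.5% and 30.3% of all genes, with a median log2 change of -2.60. Spermatid and spermatocyte markers fell in the same comparison, as given above, but these lists share Spaca1 and Tex101 with the partner list. Clgn, the chaperone calmegin, on which pairing of Adam1a with Adam2 depends in mouse spermatids, went from a mean signal of 1866 ± 65.5 (SD, n = 2) to 61.6 ± 2.56, a change of -4.92 ± 0.08 (SE, adjusted p = 4.3e-11). Cmtm2b, needed in the mouse for Adam3 to reach the sperm surface, went from 1942 ± 241 to 58.5 ± 1.12, a change of -5.05 ± 0.09 (SE, adjusted p = 6.3e-11). The gene that rose was Tpst2 (1.92 ± 0.12 SE, adjusted p = 3.5e-07), which sulfates tyrosines and is used by many cells. From 1 week to 2 weeks 5 rose and 1 fell, beside 25.6% and 25.2% of all genes. Tex101, needed for mouse Adam3 maturation and also on the spermatocyte marker list used here, rose from 192 ± 14 to 551 ± 3.2 (1.52 ± 0.11 SE, adjusted p = 1.9e-06). Clgn rose by 0.66, while Tpst2 changed by -1.30. From 2 weeks to 3 weeks 1 rose (Zp3r, 0.24) and 1 fell (Ace, -0.68), beside 7.71% and 16.5% of all genes. GS cells exceeded 3 weeks in 3, led by Tpst2 (1.18) and Tex101 (0.82), and were lower in 4, led by Spam1 (-0.33) and Zp3r (-0.30). Of all genes 29.9% were higher and 17.2% lower in that comparison. Against 0 weeks, 13 of the 15 were lower and 1 higher (median -2.48), beside 20.4% and 30.8% of all genes.

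Most genes that partner or restrain the surface sheddases rose at 1 week and were lower again at 2 weeks. Of 20 measured, 16 rose and 3 fell in the 1st week (median 1.01), beside 30.3% and 27.5% of all genes, and 3 rose and 15 fell from 1 week to 2 weeks (median -0.84), beside 25.6% and 25.2%. The markers of fibroblasts and mesenchyme had medians of 3.10 and -2.68 in these comparisons and 1.43 for GS cells against 3 weeks, and their part in the changes of this list was not tested. The largest rises were those of secreted metalloprotease inhibitors. Timp1 went from 91.1 ± 7.85 (SD, n = 2) at 0 weeks to 8069.6 ± 615 at 1 week (6.47 ± 0.30 SE, adjusted p = 2.8e-08), and Timp3, an inhibitor of Adam17, from 683 ± 115 to 6798 ± 145 (3.32 ± 0.13 SE, adjusted p = 8.1e-09). The 3 falls were small: those of Tspan33 (-0.26) and Tspan15 (-0.25), tetraspanins that escort Adam10, and that of the inhibitor gene Timp4 (-0.22), singled out after its value was seen. Into 2 weeks Timp3 changed by -4.18 ± 0.13 (SE, adjusted p = 7e-09) and Timp2 by -3.00 ± 0.19 (SE, adjusted p = 7.4e-07), while Tspan14 (0.57) and Tspan33 (0.38) rose.

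From 2 weeks to 3 weeks 7 of the 20 fell and 1, Timp4 (0.25), rose (16.5% and 7.71% of all genes), with Timp2 (-1.67, adjusted p = 0.00054) and Timp3 (-0.72, adjusted p = 0.004) falling most. GS cells were higher than 3 weeks in 13 and lower in 1 (Timp4, -0.35), beside 29.9% and 17.2% of all genes, with Timp2 at 3.04 ± 0.19 (SE, adjusted p = 3.1e-06) and Timp3 at 2.85 ± 0.13 (SE, adjusted p = 5.1e-07). They were higher than 0 weeks in 13, led by Timp1 (5.29) and Timp3 (1.27), and lower in 0, beside 30.8% and 20.4% of all genes. Singled out after their values were seen, Furin, which removes the prodomain of ADAM proteases, and the iRhom genes Rhbdf1 and Rhbdf2, which carry Adam17 to the surface, rose in the 1st week by 2.25, 1.51 and 1.43 on the log2 scale. Into 2 weeks they changed by -1.77, -1.33 and -0.53, and GS cells exceeded 3 weeks by 0.85, 0.73 and 0.52, all passing.

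Genes of known shed substrates gave 27 rises, 5 falls and 7 not passing among 39 in the 1st week (median 1.33), beside 30.3% and 27.5% of all genes. From 1 week to 2 weeks 1 rose and 26 fell (median -1.13), beside 25.6% and 25.2%. From 2 weeks to 3 weeks 0 rose and 9 fell, near the 16.5% of all genes that fell. GS cells were higher than 3 weeks in 19 and lower in 4 (29.9% and 17.2% of all genes), and higher than 0 weeks in 22 and lower in 6 (30.8% and 20.4%). All 22 fibroblast and mesenchyme markers rose in the 1st week and fell in the next, and their part in the substrate changes was not tested. Cd44, the hyaluronan receptor, went from 97.8 ± 2.26 (SD, n = 2) to 2475 ± 235 in the 1st week (4.66 ± 0.12 SE, adjusted p = 4.2e-10). Ereg, the growth factor epiregulin released by Adam17, rose by 4.53 ± 0.20 (SE, adjusted p = 1.8e-08), changed by -3.86 into 2 weeks and was higher in GS cells than at 3 weeks by 2.66 ± 0.20 (SE, adjusted p = 7e-06). Csf1, the macrophage growth factor, changed by -3.92 ± 0.13 (SE, adjusted p = 8.5e-09) into 2 weeks. Kit, a receptor of differentiating spermatogonia, ran the other way: it fell from 282 ± 22.7 to 114 ± 8.32 (-1.30 ± 0.08 SE, adjusted p = 3.9e-07), rose to 248 ± 12.9 at 2 weeks (1.12 ± 0.08 SE, adjusted p = 2.3e-06) and was lower in GS cells than at 3 weeks (-0.35). Jag1 (-0.88 ± 0.10 SE, adjusted p = 0.00051) and Notch1 (-0.86 ± 0.11 SE, adjusted p = 0.00091), a ligand and a receptor cut by Adam10, fell from 2 weeks to 3 weeks.

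The LGI ligands of the neural ADAMs moved in few cases. Of the 4 genes, Lgi2 (1.36 ± 0.07 SE, adjusted p = 4.6e-08) and Lgi3 (0.49) rose in the 1st week, and 2 fell into 2 weeks, led by Lgi2 (-1.06 ± 0.07 SE, adjusted p = 6.1e-07). None passed from 2 weeks to 3 weeks. In GS cells Lgi1 was lower than at 3 weeks (-0.35) and Lgi2 higher than at 0 weeks (0.20). Of all genes 30.3% rose in the 1st week and 25.2% fell into 2 weeks. In GS cells 17.2% of all genes were lower than at 3 weeks and 30.8% higher than at 0 weeks.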

How the data were processed

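The intensity values are linear signals of 28856 transcript clusters, deposited by the authors. Annotation release na32 on mm9 is named per the file headers. How the scans were background-corrected, summarised and normalized is not given in the sources used here. A 2nd table by the authors, called the authors' deposited table, holds a fold value per cluster, the ratio of their 3 weeks mean to their 0 weeks mean, and these means equal geometric means of the 2 arrays within 8.9e-07.

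Signals were floored at 1 and taken as log2. The 22439 clusters with 1 symbol gave 20174 genes after symbols were updated through RefSeq (GRCm38.p6, used for names, gene order and promoters), with the brightest cluster per gene. Group means of all 5 groups were fitted with limma 3.58.1 in R 4.3.3 (5 residual and 4.39 prior degrees of freedom), with a Benjamini-Hochberg adjustment of p-values over the whole table and a threshold of 0.05. Every adjusted p comes from limma. Log2 changes are the first group minus the second, ± SE. An exact permutation test of 2 against 2 arrays cannot go below p = 0.333 and was not used. The number of arrays limits the precision.

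Members and lists were chosen with earlier results of these data known. All members are accounted for; those that passed with at least 2-fold in some comparison are given per array, and of each list up to 2 passing rises and 2 passing falls are named per comparison. Other settings tried are given with their effect after the results; the fits without the 0 weeks or the 1 week arrays were added after seeing the data. Data were simulated for 2 weeks against 1 week, with 20174 genes and 50 changed at each fold. Of genes changed 1.25, 1.5, 2 and 4-fold, 16, 62, 98 and 100% were called, with 5 false calls. In the real comparison 5167 genes rose and 5092 fell, so the share of changes recovered there may differ. Cmtm2a and Prnp were on no single-symbol cluster, and protein features were not analysed here.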

Additional observations from a re-analysis of the deposited data

How the results depend on the processing

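Of the member calls, 22 of 27 (1 week against 0 weeks), 8 of 11 (2 weeks against 1 week), 1 of 5 (3 weeks against 2 weeks), 6 of 18 (GS cells against 3 weeks) and 24 of 26 (GS cells against 0 weeks) passed in every setting that tested them. Leaving out each array in turn, where a lone array is taken to vary like the other groups, gave 8 to 9 higher and 17 to 19 lower for 1 week against 0 weeks, 0 to 2 and 8 to 9 for 2 weeks against 1 week, 0 to 2 and 1 to 3 for 3 weeks against 2 weeks, 7 to 10 and 5 to 9 for GS cells against 3 weeks, and 7 to 9 and 17 to 18 for GS cells against 0 weeks. The count that differed among the 5 groups ran from 26 to 29.

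A minimum of 2-fold left 12 of 19 lower for 1 week against 0 weeks, 0 of 2 higher and 5 of 9 lower for 2 weeks against 1 week, 0 of 2 and 0 of 3 for 3 weeks against 2 weeks, 1 of 9 and 0 of 9 for GS cells against 3 weeks, and 3 of 8 higher for GS cells against 0 weeks. A filter on dim genes kept 12777 genes and 21 members, and left 12 lower at 1 week, 0 higher at 2 weeks, 1 higher at 3 weeks, and 11 lower for GS cells against 0 weeks, since 10 members were not tested. The 2 rises at 2 weeks became 0 under quantile scaling, 1 under median scaling, 0 under cyclic loess scaling, 1 with log2(signal + 16) and 0 without the 0 weeks arrays. The 2 rises at 3 weeks became 0 under each of the 3 scalings and 1 with every cluster as a unit, without the 0 weeks arrays or without the 1 week arrays. The 9 falls of GS cells against 3 weeks became 1 under quantile scaling and 3 with only the 2 groups fitted. Adam15 for GS cells against 0 weeks turned to -0.14 under cyclic loess scaling. The cause was not tested.

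Same-numbered arrays deviated together in some groups but not throughout. The correlation of replicate differences was over 0.1 in 6 of 10 group pairs, those among 0 weeks, 1 week, 3 weeks and GS cells (0.31 to 0.584). In the pairs with 2 weeks it was -0.0668 to -0.0245. Numbers were not taken as pairs in the main fit. With the replicate number as a block, the falls from 2 weeks to 3 weeks went from 3 to 5, with Adam15 and Adam9 added (adjusted p = 0.035 and 0.045). It also added Adam33 at 1 week and Adam8 for GS cells against 0 weeks (0.0076 and 0.027) and ended no call. Median scaling moved the median of all genes from -0.04 to 0.07 at 1 week. The share of rises among all called genes was 31.9% from 2 weeks to 3 weeks, 20.8% under median and 50.7% under cyclic loess scaling; for GS cells against 0 weeks it was 60.2% and, under cyclic loess scaling, 46.6%. Signals below the lower quartile limit how far a fall can be read.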

Other observations

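Clusters annotated with several symbols lay outside the rule, and 4 of them carry an ADAM symbol; they were given no test. A cluster shared by Adam34 and the predicted genes Gm5346 and Gm5347 had signals of 108 and 101 at 0 weeks, 43.6 and 40.6 at 1 week, 58.3 and 60.6 at 2 weeks, 109.9 and 91.9 at 3 weeks, and 45.6 and 48.4 in GS cells. Its 3 weeks arrays overlapped its 0 weeks arrays in signal. A 2nd Adam34 cluster, shared with Gm5347, had 76.7 and 77.1 at 0 weeks, 45.5 and 42.6 at 1 week, 52.7 and 51.8 at 2 weeks, 63.2 and 66.1 at 3 weeks, and 46.4 and 47.5 in GS cells. A cluster shared by Adam4 and Gm4787 had 166 and 191 at 0 weeks, 66.0 and 76.1 at 1 week, 83.8 and 73.1 at 2 weeks, 91.8 and 114 at 3 weeks, and 63.8 and 68.3 in GS cells. The cluster shared by Iah1 and Adam17 had its highest mean at 1 week (283 and 256) and its lowest at 0 weeks (168 and 177). It had 197 and 209 at 2 weeks, 253 and 242 at 3 weeks, and 235 and 257 in GS cells. Its 3 weeks arrays thus lay above its 2 weeks arrays and between its GS cells arrays. On the single-symbol Adam17 cluster the 3 weeks arrays lay below those of both groups.

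Adam20 and Adam34l each had a cluster under an older symbol, which the rule did not choose. Adam20 had mean signals of 88.6 ± 4.3 (SD, n = 2) at 0 weeks, 49.2 ± 2.69 at 1 week, 52.4 ± 0.348 at 2 weeks, 57.2 ± 2.13 at 3 weeks and 52.3 ± 3.99 in GS cells. Adam34l had 73 ± 0.227, 43.9 ± 2.43, 52.7 ± 5.91, 66.3 ± 2.21 and 48.3 ± 4.55 in the same order, and its 0 weeks mean was the highest of the 5, as was that of Adam20.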
